A study of Mus musculus with 24 samples.

Results

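The genes described here are 10 immediate early genes, taken by name from the 19399 genes of the table of normalized counts: Fos, Fosb, Jun, Junb, Egr1, Atf3, Ier2, Ier3, Nr4a1 and Btg2. All 10 were found, and all 10 were among the 17592 genes tested, which reached 10 normalized counts in 5 or more libraries. Expression was measured by RNA sequencing of polyadenylated RNA from the kidneys of 24 C57BL/6J mice, an inbred strain, aged 10 weeks, each mouse giving 1 library. There were 6 females and 6 males with food and water freely available, here called watered, and 5 females and 7 males whose water had been withheld for 9 to 11 h, here called deprived. Collection took place at midnight, give or take 1 h, when the mice had been active for 6 h. This window is the same for all groups, and the labels used here give no time for single mice. Each library came from a cut portion of a kidney, so the mix of cortex and medulla can differ between mice. The series asks what mild dehydration does to the kidney.

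Immediate early genes are transcribed within minutes of a stimulus without new protein synthesis, because the factors that switch them on, such as CREB and serum response factor, are already present and are activated by kinases. Their transcripts are short-lived, and many encode transcription factors that act on a later set of genes. Fos and Fosb pair with Jun and Junb to form the AP-1 factor, Atf3 is a related stress-induced factor, Egr1 is a zinc finger factor, and Nr4a1 is an orphan nuclear receptor. Ier2 and Ier3 encode early response proteins, Ier3 being tied to cell survival, and Btg2 encodes an antiproliferative cofactor of mRNA deadenylation. In the kidney these genes respond to injury, growth factors, hormones and changes of tonicity.

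In the 250 bases before the RefSeq start (GRCm38.p6), which the promoter table gives for 8 of the 10 genes, known elements were searched. The motif TGACG, the core of the element that CREB and related factors bind, was found on either strand in 6 of 8 members, those of Fos, Fosb, Junb, Atf3, Nr4a1 and Btg2. It was found in 17.8% of all 32851 promoters of that table. Jun and Ier3 had no match, and Egr1 and Ier2 were not searched. The sequences of Fos (chr12:85473640-85473889, + strand), Btg2 (chr1:134079156-134079405, - strand), Fosb (chr7:19310046-19310295, - strand) and Atf3 (chr1:191183334-191183583, - strand) are shown because these members cover the range of the results below, from the most to the least coordinated. They are written 5′ to 3′ with the motif or its reverse complement CGTCA in capitals.
Fos: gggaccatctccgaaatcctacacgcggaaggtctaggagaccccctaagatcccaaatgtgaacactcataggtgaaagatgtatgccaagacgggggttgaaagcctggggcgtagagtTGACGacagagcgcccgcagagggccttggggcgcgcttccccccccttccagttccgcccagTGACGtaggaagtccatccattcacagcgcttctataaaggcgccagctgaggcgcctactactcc
Btg2: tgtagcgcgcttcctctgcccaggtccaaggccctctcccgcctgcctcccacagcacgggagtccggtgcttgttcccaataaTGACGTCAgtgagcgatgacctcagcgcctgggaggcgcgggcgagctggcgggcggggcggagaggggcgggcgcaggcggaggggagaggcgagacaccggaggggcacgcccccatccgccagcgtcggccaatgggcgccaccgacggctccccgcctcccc
Fosb: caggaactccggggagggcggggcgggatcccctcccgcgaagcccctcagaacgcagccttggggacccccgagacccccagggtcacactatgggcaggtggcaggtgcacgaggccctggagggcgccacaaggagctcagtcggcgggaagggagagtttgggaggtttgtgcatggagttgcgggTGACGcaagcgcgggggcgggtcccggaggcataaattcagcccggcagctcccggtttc
Atf3: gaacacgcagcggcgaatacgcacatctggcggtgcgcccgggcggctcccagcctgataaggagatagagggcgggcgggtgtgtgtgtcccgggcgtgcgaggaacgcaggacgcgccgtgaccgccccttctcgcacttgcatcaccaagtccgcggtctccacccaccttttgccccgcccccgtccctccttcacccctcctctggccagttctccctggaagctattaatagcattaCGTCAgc
Fos has the motif 129 to 125 and 66 to 62 bases before its start, together with the TATA box TATAAA, which lies 33 to 28 bases before it. Btg2 has the full palindrome TGACGTCA, 166 to 159 bases before its start, in which matches on both strands overlap. This palindrome was found in 1 of 8 members and in 1.55% of all promoters. In Fosb the motif lies 60 to 56 bases before the start and is followed by a match to the EGR element, which was searched as GCGGGGGCG and GCGTGGGCG. That element was found in Fosb and Nr4a1 and in 3.06% of all promoters. Nr4a1 had the TGACG motif 4 times. The windows of Nr4a1 (chr15:101266596-101266845) and Atf3 lie inside the annotated genes, and the outermost starts of these 2 genes were not searched. In Atf3 the match lies 7 to 3 bases before the RefSeq start and inside the first exon of a GENCODE transcript that begins slightly further upstream. The AP-1 elements TGACTCA and TGAGTCA and the CArG box, which serum response factor binds, had no match in the 8 windows, against 4.46% and 1.47% of all promoters. A match describes letters only.

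Before the results, the libraries that stand apart are given. The libraries held 14411843 to 29398960 reads assigned to genes. The unnamed gene ENSMUSG00000119584 held 1.07% to 2.86% of the reads of 4 libraries and 0.268% to 0.850% elsewhere. The 4 are deprived female 1, watered female 6 and 2 deprived males, numbers 6 and 7. The treatment label of deprived female 5 disagrees with its title, and the mouse was kept with the deprived females. Kidney markers were present: all 6 proximal tubule, 4 thick ascending limb and 4 principal cell genes looked for were present, the proximal tubule genes summing to between 136713 and 277806 normalized counts. Of 4 adrenal markers 1 was in the table, at 82.0 to 131. In bulk tissue, a larger number of cells that make a transcript and more transcript per cell cannot be told apart.

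The 10 genes differed widely in level and in how far they varied between mice. Per kilobase of exon, Ier3 had the highest mean level (872 normalized counts per kb over 24 mice), followed by Jun (303), Btg2 (218), Junb (213), Ier2 (166), Egr1 (92.1), Nr4a1 (63.0), Fos (46.6), Atf3 (16.0) and Fosb (2.58). Among 17536 genes with an exon length, 6.28% had a higher level per kb than Ier3 and 96.3% had a higher level than Fosb. Btg2 and Junb, next to each other in this order, differed by less than the spread of either gene over the mice.

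Fos, Fosb, Nr4a1 and Egr1 were the most variable of the 10. Fos ranged 29.5-fold over the 24 mice, Fosb 15.4-fold, Nr4a1 10.6-fold and Egr1 8.12-fold, whereas Jun ranged 2.21-fold and Btg2 2.22-fold. Fosb rests on few reads, 3 to 54 per library, so counting error adds to its spread. The spread of log2(value + 1) within groups was 1.14 for Fos, 1.05 for Fosb, 0.81 for Egr1 and 0.73 for Nr4a1, against a median of 0.21 over the tested genes. Only 0.369% of tested genes had a larger spread than Fos, and 4.47% a larger spread than Nr4a1. The other members lay between 0.29 (Btg2) and 0.41 (Junb), each above the median gene, with 21.2% to 34.7% of tested genes more variable.

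**Figure D1:**
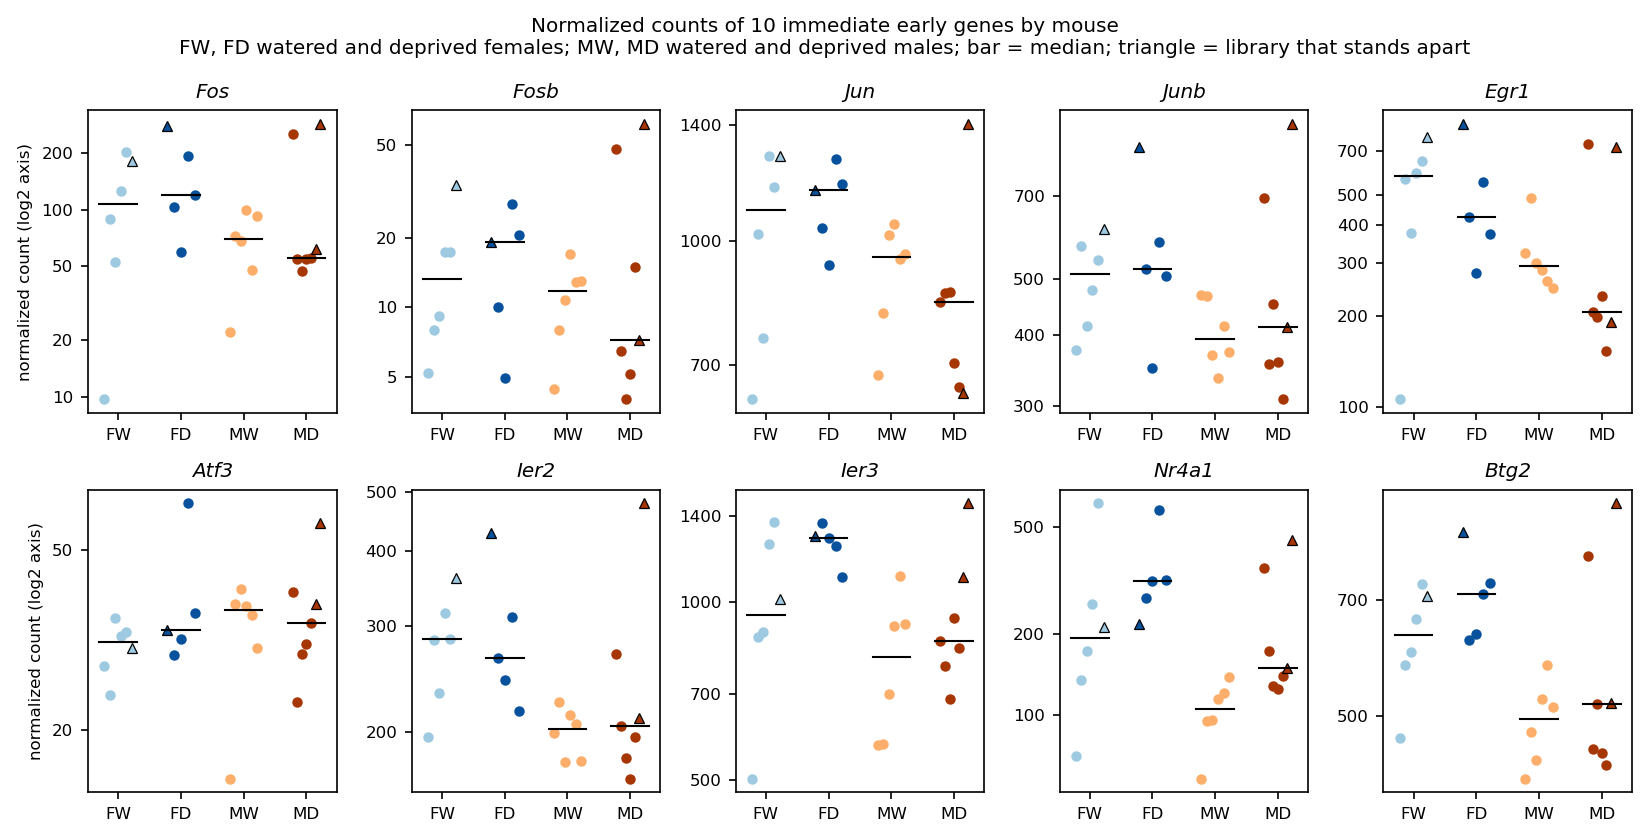
Normalized count of each of the 10 genes (log2 axis) in watered females (FW, 6), deprived females (FD, 5), watered males (MW, 6) and deprived males (MD, 7); points are mice, bars are medians and triangles mark the 4 libraries that stand apart. Deprived males 1 and 7, the first and the last point of their group, are the high points of Fos, Fosb, Junb, Egr1, Nr4a1 and Btg2, and watered female 1 is the low point of its group in 9 of the 10 panels.

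Water deprivation was not followed by a detectable change of any of the 10 genes. In females, 0 of 10 were called (adjusted p below 0.05, limma with Benjamini-Hochberg adjustment over all tested genes), where 0.79% of tested genes were called. In males 0 of 10 were called, against 0.227% of tested genes, and in the mean of both sexes 0 of 10, against 1.64%. The groups overlapped for all 10 genes in both sexes, where 2.48% of tested genes in females and 0.529% in males did not overlap. The edgeR quasi-likelihood test and DESeq2 on the recovered reads also called none of the 10. At an unadjusted p below 0.05, limma had 0 of 10 in females (9.73% of tested genes), 1 in males (Nr4a1; 11.6%) and 2 in the mean (Nr4a1 and Ier3; 13.4%).

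The estimates themselves lay mostly above 0. The log2 difference, deprived minus watered, was positive for 10 of 10 genes in females, 8 of 10 in males, the exceptions being Jun and Egr1, and 9 of 10 in the mean of both sexes. Of all tested genes 44.9%, 49.2% and 47.6% lay above 0. The median over the members was 0.18 in females and 0.21 in males, against -0.02 and -0.00 over all tested genes. Because the members move together from mouse to mouse, as described below, these 10 signs are far from 10 separate observations. The intervals were wide for the variable genes. In females the 95% interval ran from -0.59 to 2.10 for Fos and from -1.06 to 1.37 for Fosb.

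**Figure D2:**
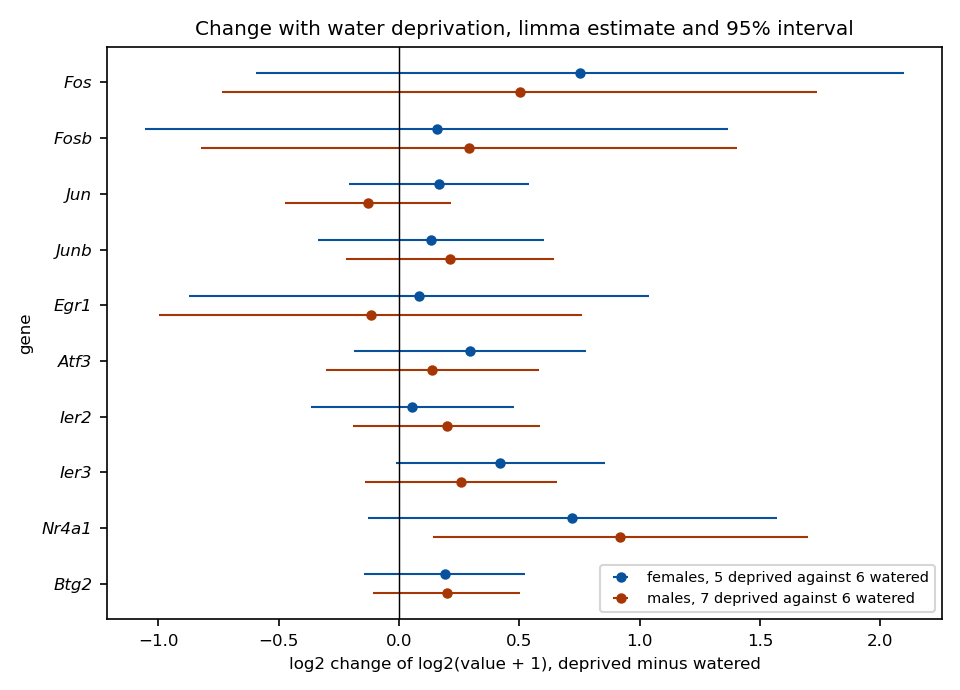
Log2 difference of log2(value + 1), deprived minus watered, of each gene in females (upper, blue) and males (lower, brown), with the limma estimate as a point and the 95% interval as a line. Of the 20 intervals, that of Nr4a1 in males, 0.14 to 1.70, is the one that leaves out 0.

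Gene positions below are those of the GENCODE M21 annotation of GRCm38. Among the AP-1 subunits, Fos (chr12:85473890-85477273, + strand), the partner with the sharpest induction in most tissues, had values of 278, 104, 59.4, 194 and 120 normalized counts in deprived females 1 to 5. Watered females ranged from 9.70 through a median of 107 to 203. The deprived females thus lay inside the range of the watered ones except deprived female 1, one of the libraries that stand apart, which lay above it. The means were 151 ± 85.9 (SD, n = 5) and 110 ± 74.8 (SD, n = 6). The log2 difference was 0.75 (SE 0.65; limma, adjusted p = 0.84). It fell to 0.18 without watered female 1, whose 9.70 was the lowest Fos value of all mice.

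In males, Fos had 46.7, 55.4 and 286 as the lowest, median and highest values of the deprived group, and 22.3, 69.9 and 100.1 in the watered group. The median was lower in the deprived males although their mean was higher, at 116 ± 106 (SD, n = 7) against 67.1 ± 28.9 (SD, n = 6). Deprived male 1 with 255 and deprived male 7 with 286 lay far above the other 5, which ranged from 46.7 to 61.3. The log2 difference was 0.50 (SE 0.60; limma, adjusted p = 0.71).

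Fosb (chr7:19302696-19310051, - strand), a close relative of Fos, followed the same mice at a much lower level. Deprived males 1 and 7 had 48.4 and 61.8 normalized counts and the other 5 had 4.00 to 15.0, against 4.45 to 17.1 in the watered males. The difference was 0.29 (SE 0.54; limma, adjusted p = 0.82) in males and 0.16 (SE 0.59; adjusted p = 0.99) in females. It turned to -0.07 in males without deprived male 7 and to -0.07 in females without deprived female 4.

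Jun (chr4:95049034-95052222, - strand), a partner of Fos in AP-1, had a difference of 0.17 in females and -0.13 in males (SE 0.18 and 0.17; limma, adjusted p = 0.89 and 0.74). Deprived males 1 to 6 had 646 to 864 normalized counts, deprived male 7 had 1403, and watered males had 679 to 1052. Junb (chr8:84974484-84978718, - strand), which often opposes Jun, had differences of 0.13 and 0.21, with 349 to 850 in deprived and 377 to 612 in watered females. Jun and Junb each overlap a gene on the opposite strand, Junos (10.5 to 36.5 normalized counts) and Prdx2 (3025 to 5652), and whether reads were counted by strand is not given in the sources used here. Across 24 mice the deviations correlated at r = 0.23 for Jun with Junos and 0.69 for Junb with Prdx2, and reads of such partners cannot be told apart here.

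Egr1, the zinc finger factor of growth factor and stress signalling, showed no direction in common between the sexes. The difference was 0.08 in females and -0.12 in males (SE 0.46 and 0.42; limma, adjusted p = 0.99 and 0.91). Deprived females 1 to 5 had 861, 425, 277, 552 and 374 normalized counts, and watered females ranged from 106 through a median of 580 to 779. Deprived males 1 and 7 had 739 and 725, above all watered males (247 to 490), while the other 5 deprived males, at 153 to 233, lay below all watered males. The male estimate near 0 therefore averages mice on both sides of the watered range.

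Atf3 (chr1:191170296-191218039, - strand), a stress-induced member of the ATF/CREB family, had a difference of 0.30 in females and 0.14 in males (SE 0.23 and 0.22; limma, adjusted p = 0.81 and 0.78). Deprived female 4 had 63.3 normalized counts, the others of its group 29.3 to 36.3 and the watered females 23.9 to 35.3. Without deprived female 4 the female difference was 0.11. In males the lowest library was a watered one, at 15.6.

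Nr4a1 (chr15:101254269-101274795, + strand), the orphan nuclear receptor also called Nur77, had the largest estimates of the 10 genes in males and in the mean of both sexes. Deprived females 1 to 5 had 219, 273, 315, 581 and 319 normalized counts, and watered females ranged from 70.2 through a median of 193 to 614. Deprived males had 125, 150 and 448 as the lowest, median and highest values, and watered males 57.9, 105 and 139. In males 5 of 7 deprived mice lay above the highest watered one, deprived male 5 only by a narrow margin. The other 2 lay above 5 of the 6 watered mice.

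The log2 difference of Nr4a1 was 0.72 in females (SE 0.41; limma, adjusted p = 0.64), 0.92 in males (SE 0.38; adjusted p = 0.36) and 0.82 in the mean (SE 0.28; adjusted p = 0.16), which is 1.77-fold on the log2(value + 1) scale. Without watered female 5, whose 614 was the highest value of all mice, the mean difference was 0.99 and was called (adjusted p = 0.038). Over all alternatives the adjusted p of this difference ran from 0.038 to 0.55, the highest with the cortex minus medulla score, described below, as a covariate. Nr4a1 was thus not called in the main fit, and 1 of the 24 fits that left out a library called it. The highest adjusted p among those 24 limma fits was 0.28, and no other alternative called it.

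Ier3 (chr17:35821684-35822923, + strand), the most abundant of the 10 per kb, was tight in the deprived females, with 1294, 1363, 1284, 1246 and 1106 normalized counts. Watered females ranged from 503 through a median of 951 to 1366, so all 5 deprived values lay above the watered median and within the watered range. The difference was 0.42 in females (SE 0.21; limma, adjusted p = 0.54), 0.26 in males (SE 0.19; adjusted p = 0.56) and 0.34 in the mean (SE 0.14; adjusted p = 0.28). Ier2 (chr8:84661331-84662852, - strand), a nuclear early response protein, had differences of 0.06 and 0.20 (adjusted p = 0.99 and 0.64), and Btg2 (chr1:134075170-134079120, - strand) had 0.19 and 0.20 (adjusted p = 0.83 and 0.57). Btg2 has the smallest spread of the members, and its 95% intervals, -0.14 to 0.52 in females and -0.11 to 0.50 in males, bound its change most closely.

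Single mice carried much of these estimates. Without deprived male 7 the male differences were 0.21 for Fos, -0.07 for Fosb, -0.26 for Jun, 0.05 for Junb, -0.34 for Egr1, 0.02 for Atf3, 0.02 for Ier2, 0.15 for Ier3, 0.72 for Nr4a1 and 0.08 for Btg2. The median over the members was then 0.03, with 7 of 10 above 0. Without watered female 1 the female differences were 0.18 for Fos, -0.07 for Fosb, 0.04 for Jun, 0.06 for Junb, -0.32 for Egr1, 0.27 for Atf3, -0.04 for Ier2, 0.24 for Ier3, 0.43 for Nr4a1 and 0.11 for Btg2. The median was then 0.08, with 7 of 10 above 0.

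Whether the responses of the sexes differ was tested as an interaction. No member was called (0 of 10; limma, lowest adjusted p = 0.80; 0 at an unadjusted p below 0.05), and no gene of the 17592 was (0%; 7.09% at an unadjusted p below 0.05). The 95% intervals of the male minus the female response ran from -2.08 to 1.78 over the 10 genes, so sizeable differences were not detectable with these mice.

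A measure of the tissue taken moved with deprivation in both sexes. The cortex minus medulla score, the mean log2 level of 6 cortex genes minus that of 6 medulla genes, was 1.10 to 1.39 in deprived and 1.40 to 1.66 in watered females, and 1.83 to 2.03 in deprived and 2.10 to 2.27 in watered males. The medulla genes include Aqp2, the vasopressin-regulated water channel. The score did not overlap between deprived and watered mice of either sex. A fit with it as a covariate can therefore hardly separate score from deprivation, and calls lost in it have no clear reading. With the score as a covariate 0 of 10 members were called in females, males and the mean, and the female difference of Egr1 turned to -0.43. The estimate of Fosb moved to 1.12 in females and 1.21 in males. The summed level of 4 principal cell markers, Aqp2 among them, was 17714 to 21390 in deprived and 10298 to 16228 in watered females, and 16096 to 23456 in deprived and 10084 to 12010 in watered males. That of 6 endothelial markers was 11462 to 12795 in deprived and 9643 to 10896 in watered females. In males it overlapped, at 9114 to 10308 in deprived and 8547 to 10091 in watered mice. The part of either marker set in the estimates was not tested.

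Although they did not separate the groups, the 10 genes tended to rise and fall together from mouse to mouse, some more loosely than others. In each mouse the deviation of log2(value + 1) from its group mean was taken, so that sex and deprivation are removed. Watered females 5 and 6 and deprived male 7 lay above their group means in 10 of 10 genes, and watered female 1 lay below in 10 of 10. Deprived male 1, watered female 4 and deprived female 4 lay above in 9 of 10, and deprived males 2 to 5 and watered female 3, with deprived females 2 and 3, lay below in 9 of 10. The mean deviation over the members reached 1.14 in deprived male 7 and -1.04 in watered female 1 (log2). The deprived males thus fell into 2 mice with high and 5 with low values in most of these genes.

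**Figure D3:**
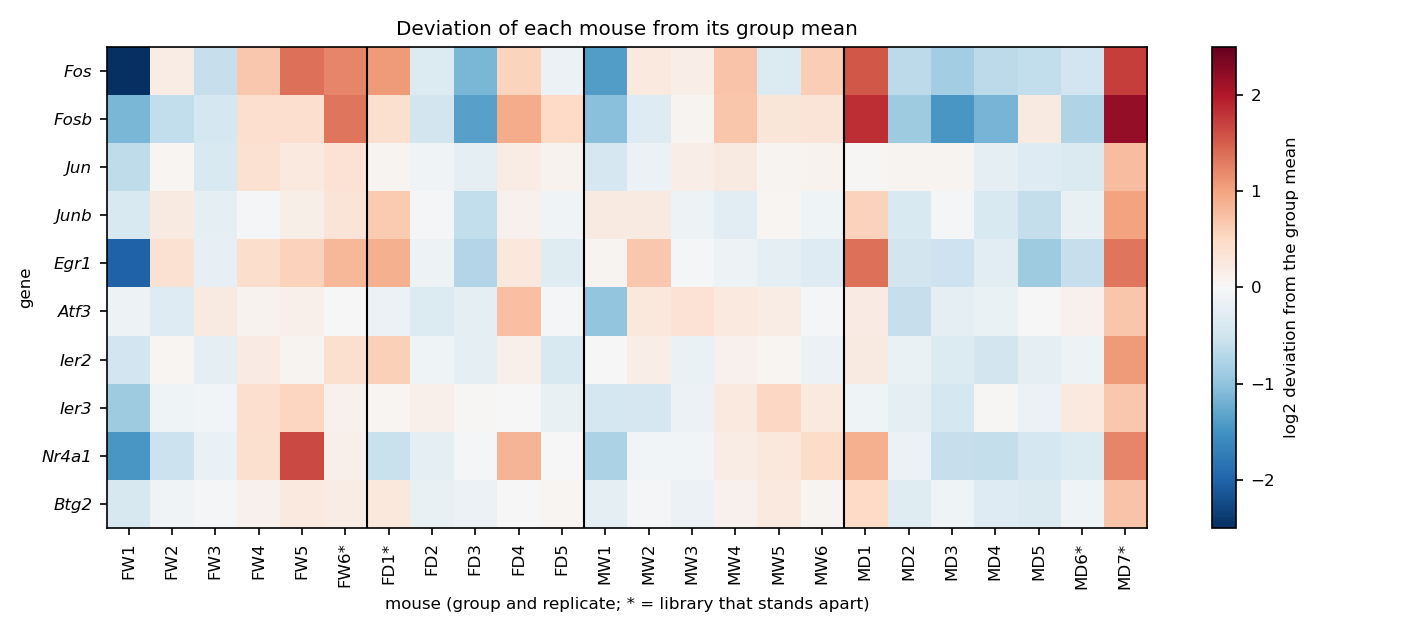
Log2 deviation of each gene (rows) from its group mean in each of the 24 mice (columns; FW and FD watered and deprived females, MW and MD watered and deprived males), red above and blue below the mean; asterisks mark the 4 libraries that stand apart. Deprived male 7 is red and watered female 1 blue in 10 of 10 genes, and deprived male 1 is red in 9, Ier3 being the exception.

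Over the 45 pairs of members the median Pearson r of these deviations was 0.68 (24 mice), from 0.28 for Junb with Atf3 to 0.88 for Fos with Egr1. With a two-sided permutation test within groups, 41 of 45 pairs were called (adjusted p below 0.05 over the 45 pairs), the lowest at r = 0.43. Of all 154730436 pairs of tested genes, 13.7% had an r at least that high and 3.83% reached the members' median of 0.68. The median over all pairs was -0.00. By Spearman's rho 36 of 45 were called, with a median of 0.63. One component held 69.5% of the variance of the standardized deviations.

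The members differed in how closely they followed the rest. Fos and Btg2 had the highest mean r with the other 9 (each 0.75), then Fosb (0.71), Egr1 and Ier2 (each 0.68), Jun (0.67), Nr4a1 (0.65), Junb (0.60), Ier3 (0.55) and Atf3 (0.47). Atf3 rests on 14 to 66 reads per library and Fosb on 3 to 54, and counting error can lower such an r. Its part in this order was not tested. The tightest pairs were Fos with Egr1 (r = 0.88, rho = 0.80, adjusted permutation p = 0.00039), Junb with Ier2 (0.85, rho = 0.79, adjusted permutation p = 0.00039) and Junb with Egr1 (0.84, rho = 0.87, adjusted permutation p = 0.00015). Those not called were Atf3 with Junb, Egr1 and Ier2, and Junb with Ier3. Ier3 correlated most with Nr4a1 (0.72) and least with Junb (0.31). When all tested genes were ranked by r with a member, the other 9 had a median rank of 6 for Fos. It was 8 for Fosb, Nr4a1 and Btg2, 14 for Egr1 and 18 for Jun. For Ier3, Atf3, Junb and Ier2 it was 361, 418, 727 and 781, so many genes outside the set followed these more closely than the median member did.

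**Figure D4:**
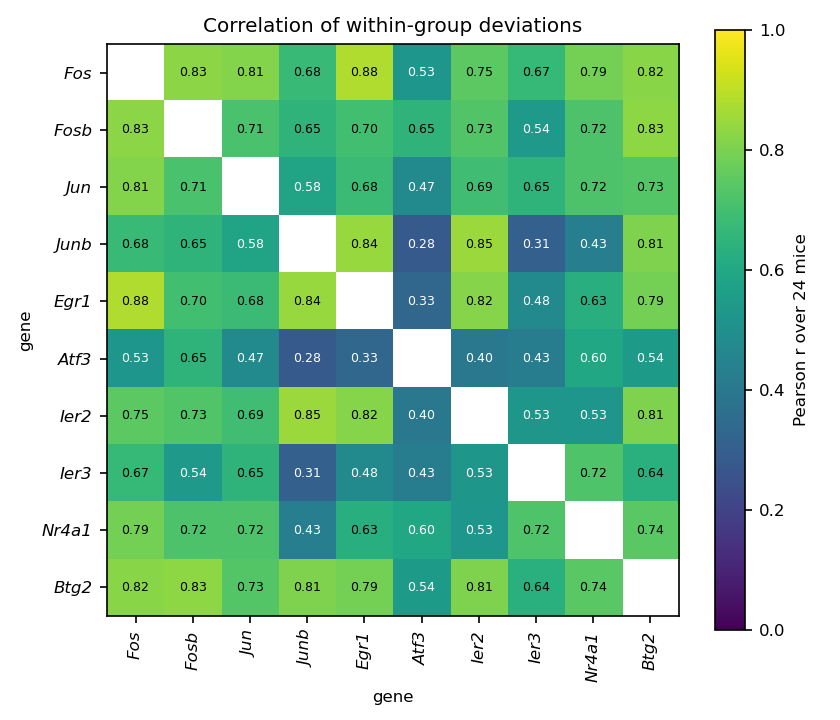
Pearson r of the within-group deviations over 24 mice for each pair of the 10 genes, printed in each cell. The row of Atf3 is the darkest, at 0.28 to 0.65, and the row of Fos lies between 0.53 and 0.88.

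Part of this coordination rests on few mice. When the 2 mice farthest from the median of the first gene were left out of each pair, the median r was 0.55, from 0.10 to 0.86, and all 45 pairs stayed positive. Leaving out deprived male 7 alone gave a median of 0.60 and 29 pairs called. The median was 0.61 without the 4 libraries that stand apart (20 mice, 33 pairs called), 0.70 in females (11 mice, 22 pairs called) and 0.70 in males (13 mice, 23 pairs called).

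Properties of the libraries were set against the members in the same way. Of 50 relations between the 10 genes and depth, the share of ENSMUSG00000119584, the mitochondrial share, the cortex minus medulla score and the red cell share, 0 were called by the permutation test (lowest adjusted p = 0.11; 2 at an unadjusted p below 0.05; 0 by Spearman's rho). Those 2 were Ier2 (r = 0.69, rho = 0.43) and Junb (r = 0.55, rho = 0.34) with the share of ENSMUSG00000119584. Without the 4 libraries that stand apart, those r were 0.14 and 0.03. The median r with that share was 0.29 over the members, and -0.24 without the 4 libraries, whereas depth had a median r of -0.04. That value for depth joins opposite signs, -0.31 in females and 0.19 in males. For the cortex minus medulla score the median r was -0.02, with -0.17 in females and 0.22 in males.

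Females had higher levels than males in nearly every member, though no member was called. In watered mice 9 of 10 genes were lower in males, Atf3 being the exception, with a median log2 difference, male minus female, of -0.31 against -0.02 over all tested genes, 46.8% of which were higher in males. None was called, where 30.5% of tested genes were (limma; 3 of 10 at an unadjusted p below 0.05, 39.6% of tested genes). In deprived mice 10 of 10 were lower in males, with a median of -0.38 against -0.02 over all tested genes (48.1% higher in males), and 0 were called against 33.1% of tested genes (3 of 10 at an unadjusted p below 0.05, 42.4% of tested genes). The sexes overlapped for all 10 genes in both water groups, where 22.4% of tested genes in watered and 15.5% in deprived mice did not overlap. Because the members move together, the signs of these differences are far from 10 separate observations. For Fosb the mean normalized count was higher in deprived males than in deprived females. The edgeR and DESeq2 estimates of that difference were also above 0.

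The largest differences between the sexes were those of Nr4a1. In watered mice it was -0.96 (SE 0.39; limma, adjusted p = 0.068), with 104 ± 27.8 (SD, n = 6) normalized counts in males and 244 ± 192 (SD, n = 6) in females. It was called by edgeR at -1.23 (adjusted p = 0.022) and by DESeq2 at -1.23 (adjusted p = 0.015). Leaving out watered female 1, a fit in which 4978 of all tested genes were called against 5361 with all mice, gave calls for Nr4a1 (-1.25, adjusted p = 0.011), Ier2 (-0.55, adjusted p = 0.041) and Btg2 (-0.42, adjusted p = 0.046). Without watered female 5 the difference of Nr4a1 was -0.63.

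In deprived mice the lowest adjusted p was that of Jun, with -0.43 (SE 0.18; limma, adjusted p = 0.065), 853 ± 260 (SD, n = 7) in males and 1116 ± 130 (SD, n = 5) in females. The calls of this comparison depended on the fit. With deprived male 7 kept, library weights and the replicate block each gave 4 calls. When deprived male 7 was left out, 4 members were called, and 5897 of all tested genes against 5830 with all mice: Jun (-0.55, adjusted p = 0.0075), Ier2 (-0.49, adjusted p = 0.014), Ier3 (-0.55, adjusted p = 0.041) and Btg2 (-0.45, adjusted p = 0.0093). Btg2 was also called without deprived male 1 (-0.41, adjusted p = 0.037) and Jun without watered female 1 (-0.43, adjusted p = 0.042), which enters only through the shared estimate of spread. The cortex minus medulla score also separates the sexes, so fits with it as a covariate can hardly tell score from sex. In them Egr1 turned to 0.75 in watered and 0.58 in deprived mice and Fos to 0.28 and 0.04, while Fosb moved to -2.65 and -2.57.

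Wider lists place the members among other early genes. They were chosen with earlier results of these data known, so their counts describe the lists and do not test them. Of 20 other early transcription factors tested, 3 rose with deprivation in the mean of both sexes and none fell, 0 being called in either sex alone. Of all tested genes 0.955% rose and 0.688% fell in that comparison. They were Klf2 (0.57, SE 0.12; limma, adjusted p = 0.011), a factor of vessel walls under flow, Klf4 (0.39, SE 0.10; adjusted p = 0.042) and Atf4 (0.23, SE 0.06; adjusted p = 0.039), the factor of the integrated stress response. Nr4a2, the relative of Nr4a1, had 0.64 (SE 0.18; adjusted p = 0.067). The median of the list was 0.18. Klf2 was called in all 24 fits that left out 1 library, whereas Atf4 was called in 11 of them (highest adjusted p = 0.087) and Klf4 in 9 (0.10).

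Of 34 other early response genes, 5 rose and 1 fell in the mean of both sexes, with a median of 0.10. Gem, a small GTPase, had the largest difference (1.14, SE 0.18; adjusted p = 0.0010), with 407 to 595 normalized counts in deprived and 102 to 337 in watered females. Sgk1, a kinase that regulates sodium channels, had 0.64 (adjusted p = 0.013), Ctgf, a matricellular protein, 0.50 (adjusted p = 0.0033), Dusp1, a MAP kinase phosphatase, 0.48 (adjusted p = 0.044), Rhob 0.43 (adjusted p = 0.0025) and Sik1, a salt-inducible kinase, -0.28 (adjusted p = 0.026). Gem and Ctgf were the 2 called in females (1.44 and 0.57; adjusted p = 0.0079 and 0.044), where 0.449% of tested genes rose, and 0 were called in males. Leaving out 1 library at a time, Gem, Sgk1, Ctgf and Rhob were called in 24 of 24 fits of the mean, Sik1 in 21 and Dusp1 in 7. The female call of Ctgf held in 13. Dusp1 also lost its call under 9 of its 14 other alternatives.

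Of 23 upstream factors and kinases, 1 rose: Crem, the cAMP-responsive modulator whose short form ICER represses the same element, had 0.43 in the mean (SE 0.07; limma, adjusted p = 0.0012) and 0.49 in females (adjusted p = 0.022), and was called in 24 and 20 of the 24 fits that left out 1 library. Crem had 343 to 464 normalized counts in deprived and 251 to 332 in watered females, which do not overlap. Creb1, Elk3 and Atf1 had differences of 0.10, 0.11 and 0.07 (adjusted p = 0.37, 0.30 and 0.42). When deprived female 5 was counted as watered, the female calls and the mean calls of Atf4, Klf4, Dusp1, Sgk1, Sik1 and Crem were lost. With the cortex minus medulla score as a covariate all 10 calls of the mean but that of Crem were lost. Because that score separates the water groups, this loss cannot tell the mix of tissue from deprivation.

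Coordination with the 10 members was not shared by the whole of these lists. The mean r of a gene's deviations with those of the members had a median of 0.47 in the other early transcription factors and 0.35 in the other early response genes, against 0.00 over all tested genes and -0.20 in the upstream factors and kinases. It lay above 0.5 in 6 of 20, 9 of 34 and 2 of 23 genes, and in 2.53% of all tested genes. Gem, with the largest difference, had a mean r of 0.49, Klf2 0.58 and Crem 0.54.

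**Figure D5:**
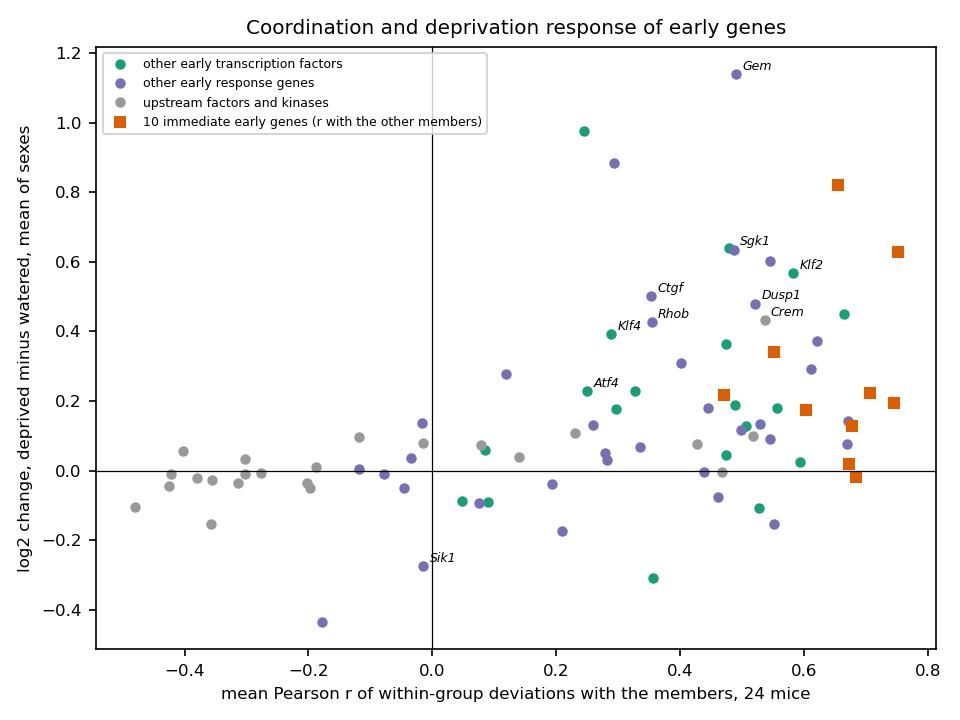
Log2 difference, deprived minus watered, as the mean of both sexes (vertical axis) against the mean Pearson r of within-group deviations with the members over 24 mice (horizontal axis), for the 10 genes (squares) and 3 wider lists (points); called genes of the lists are named. The squares lie at r of 0.47 to 0.75 and at differences of -0.02 to 0.82, with Gem above them at 1.14.

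The genes whose pattern over the 24 mice was most like that of the members were sought among named genes whose mean reached 50 normalized counts. The highest mean r belonged to Arl4d (0.68), Cyr61 (0.67), Zfp36 (0.67), Rasd1 (0.67), Cebpd (0.66), Slc25a20 (0.64), Foxq1 (0.64), Lgals4 (0.63), Ak6 (0.63) and Btg1 (0.62). Cyr61 encodes a matricellular protein, Zfp36 an mRNA decay factor, Rasd1 a dexamethasone-inducible small GTPase and Cebpd a transcription factor. The lowest mean r belonged to AK129341 (-0.68), Mapre2 (-0.65), Tsr1 (-0.63), Sppl2a (-0.63) and Tmem64 (-0.63). These r describe points that share libraries and normalization, and no p is attached to them.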

How the data were processed

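The labels describe 1 kidney library of polyadenylated RNA per mouse, in 4 groups taken from the sample titles. The authors deposited 1 table of normalized counts, a linear signal of 19399 genes in 24 libraries, made with Trim Galore, DESeq2, mm10 and Subread's featureCounts per the submitters' processing notes, which give no versions. Aligner, annotation and strand setting: not given in the sources used here. Among deposited values, 100.0% came to whole reads (tolerance 0.01 read) once 1 size factor per library was removed, and these factors were those of the median-of-ratios method. The table had lost genes with few reads before deposit: each gene had at least 100 reads in all and a read in at least 12 libraries. A total of 23 gene names had been turned into dates and were restored by identifier from GENCODE M21, in which 19300 identifiers had a match, and which gave coordinates and exon lengths.

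R 4.3.3 and limma 3.58.1 were used on log2(value + 1), in a single fit of 24 libraries with 1 coefficient per group and a trended, robust prior, for the 17592 genes that reached 10 in 5 or more libraries. Benjamini-Hochberg adjustment ran over these genes, and an adjusted p below 0.05 was called. Log2 differences on this scale understate changes of low genes. Coordination used Pearson r and Spearman's rho of deviations from group means with 100000 two-sided permutations within groups, adjusted over 45 pairs, and over 50 relations for library measures, so that the smallest p they can give is 1e-05. Alternatives included edgeR 4.0.16 and DESeq2 1.42.0 on the recovered reads, other filters, scalings and covariates, and leaving out each library. The fits were tested on simulated data. The labels state no pairing of the samples by replicate number.

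The members, gene lists, tests and alternatives were chosen with earlier results of these data known. Besides the members, genes were named if called in a list or among the 4 smallest p of a list in the mean of both sexes, or if among the 10 highest or 5 lowest mean r with the members. Listed genes outside the table, such as Fosl1, Egr4 and Npas4, were not analysed here. Depth was 14411843 to 29398960 reads per library, and the members had 3 or more reads in each library.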

Additional observations from a re-analysis of the deposited data

Results flagged for a closer look

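In 4 of the 40 combinations of member and group, a single mouse lay further from its nearest neighbour than the 95% limit of Dixon's test allows, and chance alone flags about 1 in 20 groups. Jun in deprived male 7 stood at 1403 normalized counts, where the other 6 deprived males had 646 to 864. Egr1 in watered female 1 stood at 106, where the other 5 had 376 to 779. Atf3 stood at 63.3 in deprived female 4, against 29.3 to 36.3 in the other 4 of its group. Atf3 also stood at 15.6 in watered male 1, against 30.3 to 40.9 in the other 5. Deprived male 7 is also 1 of the 4 libraries that stand apart, with 2.86% of reads in ENSMUSG00000119584, and the other 3 mice are not. No member's response differed between the sexes by the test of that difference.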

How the results depend on the processing

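Across all alternatives the counts of members called for deprivation in females, in males and for the difference between the sexes' responses stayed at 0, and that for the mean of both sexes ranged from 0 to 1 when 1 library was left out (1 without watered female 5). For watered males against watered females the count was 2 with only the groups compared, with library weights and with the replicate block, and 1 without the 4 libraries that stand apart, with deprived female 5 as watered, with the share of ENSMUSG00000119584 as a covariate, by edgeR and by DESeq2. Leaving out 1 library gave 0 to 3. For deprived males against deprived females it was 1 with quantile normalization and with only the groups compared, 2 without the 4 libraries, 3 with the share as a covariate, and 4 with library weights and with the replicate block. Leaving out 1 library gave 0 to 4. In these fits between the sexes the calls over all genes were many too: 7459 with library weights, 7186 without the 4 libraries, 6260 with the share, 6210 with the block, 5246 with quantile normalization and 4288 with only the groups compared in deprived mice, against 5830. In watered mice they were 7846, 7372, 6237, 6408 and 6977 with weights, without the 4, with the share, the block and only the groups compared, against 5361. Pairs called were 22 in females alone, 23 in males alone and 29 to 42 with 1 library left out, and the median r was then 0.60 to 0.71, with a jackknife SE of 0.10. Relations with library measures came to 1 with the replicate block. The labels state no pairing of the mice. The correlation of mice with the same title number had a median of 0.03 over 33 pairs (-0.17 to 0.45), 7 of them above 0.1. Some deprived females carry another number in the library code than in the title, and pairs by code were not tested.

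Signs turned for the differences given next, and the cause was not tested. With the cortex minus medulla score as a covariate, Egr1 in females was -0.43, and male minus female differences were 0.28 and 0.038 (watered and deprived) for Fos, 0.75 and 0.58 for Egr1 and, in watered mice, -0.68 for Atf3. With deprived female 5 as watered, Fosb in females was -0.062, and the mean differences were -0.011 for Jun and 0.036 for Egr1. With the replicate block, Fosb in males was -0.073 and Jun in the mean -0.037. By edgeR and DESeq2, Fosb in deprived males against females was 0.34 and 0.36, and Egr1 was -0.050 and -0.042 in females, 0.14 and 0.14 in males and 0.044 and 0.049 in the mean. With library weights, Jun in the mean was -0.016, Egr1 in females -0.047, Atf3 in males -0.035 and Ier2 in females -0.027. Without the 4 libraries, Atf3 in males was -0.023, Ier2 in females -0.012 and Ier2 in the mean -0.00069. Quantile normalization gave 0.042 for Atf3 in deprived males against females.

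With 1 library left out, differences that changed sign ranged from -0.073 to 0.50 for Fosb in females, -0.073 to 0.54 in males and -0.51 to 0.10 between the deprived sexes. They ranged from -0.045 to 0.056 for Jun in the mean, -0.031 to 0.29 for Junb in females, and -0.32 to 0.27, -0.35 to 0.031 and -0.22 to 0.074 for Egr1 in females, males and the mean. For Atf3 they ranged from -0.056 to 0.24 in males, -0.0040 to 0.26 between watered and -0.20 to 0.10 between deprived sexes, and for Ier2 from -0.091 to 0.15 in females.

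Over all genes, the 139, 40 and 289 called in females, males and the mean became 16, 7 and 25 with the cortex minus medulla score, 1003, 133 and 1165 with library weights, 765, 141 and 1240 without the 4 libraries, and 364, 157 and 562 by DESeq2. With the share as a covariate 224 and 503 were called in females and the mean, with deprived female 5 as watered 2 and 120, with the replicate block 64 in males, and with only the groups compared 11 in males. Leaving out 1 library gave 66 to 215, 22 to 65 and 169 to 330. The 5361 and 5830 between watered and between deprived sexes became 429 and 340 with the score, which separates the sexes as well as the water groups. The interaction, 0 genes in the main result, had 30 by DESeq2, 9 with weights, 9 without the 4 libraries, 4 with the share and 0 to 3 with 1 library left out. Depth limits Fosb most, at 3 to 54 reads per library.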
